A study of Drosophila melanogaster with 16 samples.

Results

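The data described here are the transcriptional response to 6 h of fasting in control larvae of Drosophila melanogaster, the fruit fly. All 10459 genes of the deposited table were tested, and the 8 libraries that carry the comparison were chosen by their labels: 4 of control fed larvae and 4 of control fasted larvae, out of 16 libraries in the series. The other 8 libraries are of ERK7 mutant larvae, fed and fasted in the same way, and serve here only for the error estimate and for a comparison of the responses. Each library was made from poly(A) RNA of whole male larvae of the third instar. The control line went through the same CRISPR/Cas9 screen as the mutant but carries no change in ERK7, was backcrossed into a w1118 background and was kept as a balanced stock. It is therefore 1 line, shared by both control groups. Control fed larvae stayed on regular food, and control fasted larvae were moved onto 0.5% agarose in PBS for 6 h, so that they had water but no nutrient. The sources used here differ on the age of the larvae at transfer and do not give the number of larvae in each library. Nothing in the labels says that the 4 replicates of a group are separate cultures, so the p-values measure the spread between these libraries, which may be technical in part.

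In feeding larvae, amino acids and sugars keep insulin-like signalling and the TOR kinase active, and these drive ribosome production, protein synthesis and the filling of the fat body, the organ that serves flies as both liver and adipose tissue. When food is removed, insulin signalling drops, the transcription factor FOXO enters the nucleus, and the adipokinetic hormone, the fly counterpart of glucagon, calls on stored lipid and glycogen. Autophagy, the delivery of the cell's own components to the lysosome, then returns amino acids to the larva.

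The control libraries held 16482553 to 20057340 reads over the genes of the table. Levels are given as RPM (reads per 1000000 reads, scaled by the authors between libraries), in which 1 read was worth 0.0509 to 0.0642 RPM in the control libraries. Changes are differences between the control fasted and control fed groups on the log2(RPM + 1) scale, which understates the change of genes near 0, and are given with their standard error (SE). A level written with ± is the mean and SD over the 4 libraries of a group. Between replicates, log2 levels correlated across genes with Pearson's r of 0.989 to 0.995 in the control fed group and 0.964 to 0.991 in the control fasted group. The first principal component of the 8 libraries took up 76.3% of the variance, with the fed libraries at one end and the fasted ones at the other. On the second component (12.9%), control fasted replicate 1 lay at 37.4, against -23.3 to 7.61 for the other 3 control fasted libraries. Where this library lay above or below all of the other 3 fasted libraries in most genes of a list, this is given beside the list. Over all genes it lay above them in 3215 and below them in 2785. Lsp1 genes, which encode storage proteins of the larval fat body, were lower in control fed replicate 4 than in the other control fed libraries.

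Fasting for 6 h changed the level of most genes. In all, 7292 of the 10459 genes (69.7%) passed an adjusted p of 0.05 in the limma fit, with 3922 (37.5%) higher and 3370 (32.2%) lower in fasted larvae. A change of more than 1 on the log2 scale was reached by 922 of the higher genes (8.82% of all genes) and by 946 of the lower genes (9.04%). The median change over all genes was 0.10. In 6036 genes (57.7%) the 4 control fasted libraries did not overlap the 4 control fed ones. With so large a background, a list with about 37.5% of its members higher and 32.2% lower did as the whole table did, and the lists below are to be read against these shares. The scatter of all genes shows changes at every level of expression, from genes close to 0 up to the storage protein genes.

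**Figure D1:**
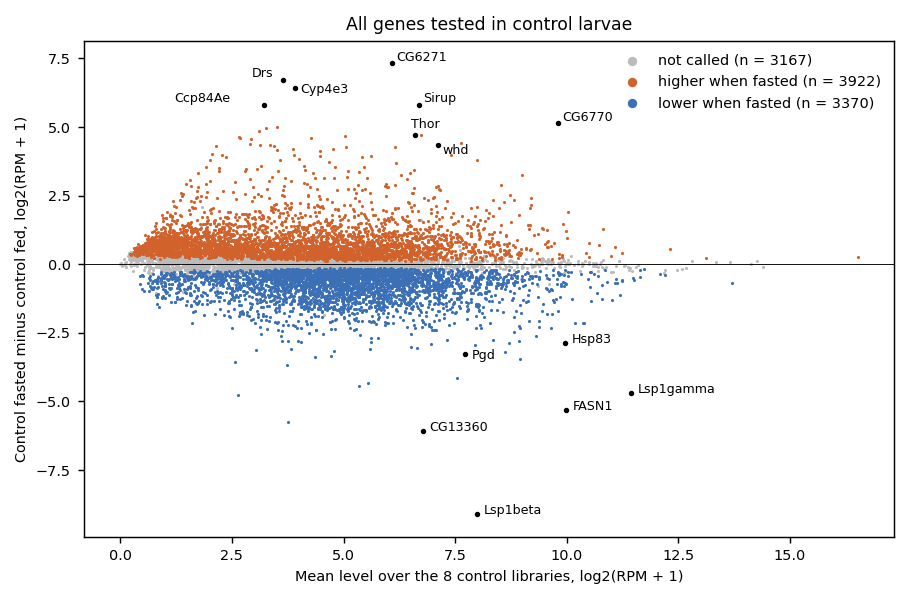
Each point is 1 of 10459 genes, with its mean level over the 8 control libraries on the x axis and the difference of control fasted from control fed on the y axis, both on the log2(RPM + 1) scale. Orange genes were higher and blue genes lower in fasted larvae at an adjusted p under 0.05, grey genes did not pass, and black points mark named genes, from Lsp1beta (-9.10) to CG6271 (7.32).

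Of the 12 largest rises among genes above the median level whose groups did not overlap, 5 were in genes of lipid breakdown or fatty acid use. Here and below, a gene said to have risen or fallen passed the adjusted p of 0.05. CG6271, which encodes a lipase, went from 6.22, 3.72, 2.63 and 5.49 RPM in the control fed libraries to 846, 891, 1007 and 694 RPM in the control fasted libraries. Its log2 change was 7.32 ± 0.31 (SE), with an adjusted p of 8.8e-11. CG6277, a related lipase gene a few kb away on chromosome 3R (27022071 to 27023217, against 27024968 to 27026109 for CG6271, release 6 of the genome), rose from 23.4 ± 16.7 to 549.6 ± 121 RPM. Reads may be split between such related genes, which was not tested. Sirup, which encodes an assembly factor of succinate dehydrogenase, was found at 12.5, 14.0, 11.0 and 13.4 RPM in the control fed libraries and 702, 747, 844 and 799 RPM in the control fasted libraries. It lies on chromosome 2L (7998869 to 7999676) and its fasted libraries did not come near the fed ones. CG6770, a relative of the mammalian stress protein gene NUPR1, rose 35.3-fold, from 150.2 ± 13.5 to 5308 ± 364 RPM. Thor is described with its pathway below. The other large rises were the lipase gene Lip3 (log2 change 4.43 ± 0.56), the carnitine palmitoyltransferase gene whd (log2 change 4.36 ± 0.14), CG34136 (log2 change 4.29 ± 0.20) and the acyl-CoA synthetase gene pdgy (log2 change 4.26 ± 0.13). Lip3 was uneven before fasting, at 7.14, 78.8, 78.1 and 62.9 RPM in the control fed libraries. CG14564, CG8541 and CG30458 also belonged to the 12, but control fasted replicate 1 stayed near the fed level in each of them. CG14564 was at 13.3, 359, 457 and 322 RPM in the fasted libraries, against at most 7.87 RPM in the fed ones.

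Of the 12 largest falls under the same limits, 2 were in storage protein genes and 3 in genes of fatty acid synthesis. Lsp1beta, one of the larval serum protein genes of the fat body (chromosome 2L, 898500 to 901316), was at 7684, 6230.1, 11684 and 2289.9 RPM in the control fed libraries and 139, 3.43, 6.62 and 1.99 RPM in the control fasted libraries. The lowest fed library still had more than 10 times the level of the highest fasted one, which was replicate 1. Lsp1gamma fell from 14920.5 ± 5041 to 627 ± 416 RPM. Lsp1alpha, which is outside the 12 because its mean level was below the median, fell from 232 ± 244 to 0.883 ± 0.505 RPM. The fatty acid synthase gene FASN1 went from 6118, 5447, 7123 and 7127 RPM in the control fed libraries to 220.0, 104, 258 and 109.9 RPM in the control fasted libraries, a 37.3-fold lower mean. ACC, the acetyl-CoA carboxylase gene that supplies it, fell from 1632 ± 207 to 153 ± 46.8 RPM, and ATPCL, the ATP citrate lyase gene, from 1190.2 ± 78.5 to 129 ± 22.8 RPM. CG13360 fell from 907 ± 88.7 to 14.1 ± 8.97 RPM. The remaining genes of the 12 were ninaD, a scavenger receptor gene for carotenoid uptake (log2 change -4.44 ± 0.20), CG14205 (log2 change -4.32 ± 0.67), CG4830 (log2 change -4.13 ± 0.43), the non-coding gene CR42491, which overlaps another gene on its strand (log2 change -3.36 ± 0.12), and the pentose phosphate genes Zw and Pgd that are described below with their pathway.

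Genes of nutrient signalling were spread over both directions. Of 36 measured regulators and transcription factors, 21 were higher, 6 were lower and 9 did not pass, with a median change of 0.26. Thor, the 4E-BP gene through which FOXO and low TOR activity restrain translation, was at 15.9, 20.7, 15.1 and 21.5 RPM in the control fed libraries and 451, 515, 548 and 487 RPM in the control fasted libraries. The mean was 27.3-fold higher, and the log2 change was 4.71 ± 0.23 (SE), with an adjusted p of 2.8e-10. InR, the insulin receptor gene and another FOXO target, rose from 25.1 ± 3.09 to 145 ± 13.8 RPM. The foxo gene itself rose far less, from 75.6 ± 3.33 to 122 ± 4.39 RPM, but without overlap between the groups. Among genes of the TOR pathway, Rheb, the activator of TOR complex 1, rose from 58.6 ± 3.57 to 179 ± 9.16 RPM while Tor fell from 88.6 ± 1.93 to 52.8 ± 3.24 RPM. REPTOR, a transcription factor held back by TOR, rose from 24.0 ± 1.76 to 62.8 ± 8.41 RPM. Its partner gene REPTOR-BP was barely detected in fed larvae, at 0.0541, 0.207, 0.0642 and 0.0528 RPM, which is 1 to 4 reads, and reached 0.952, 1.21, 1.06 and 1.1 RPM in the fasted libraries.

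The sug gene, which encodes the lipogenic Gli-similar factor Sugarbabe, fell from 22.2, 21, 20.3 and 18.0 RPM in the control fed libraries to 3.28, 2.37, 2.30 and 2.75 RPM in the control fasted libraries. Its log2 change was -2.54 ± 0.25 (SE), with an adjusted p of 4.5e-07. Mondo, the sugar sensor upstream of it, fell by 0.34 on the log2 scale, from 128 ± 17.9 to 100.2 ± 1.70 RPM. The PGC-1 homologue srl fell from 86.5 ± 10.4 to 19.6 ± 0.893 RPM and the nuclear receptor gene Hr38 from 22.3 ± 1.57 to 5.97 ± 1.43 RPM. The growth regulator Myc did not pass the test (84.0, 91.8, 81.7 and 116 RPM in the control fed libraries and 89.8, 93.7, 94.1 and 94.4 RPM in the control fasted libraries), and crc, the fly ATF4 gene, rose from 797 ± 57.0 to 1025 ± 32.5 RPM. Pdk, the kinase gene that shuts pyruvate dehydrogenase, was chosen after its values were seen. It rose from 176 ± 19.4 to 1012 ± 117 RPM.

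Hormone and peptide genes were more often higher than lower: of 37 measured, 22 were higher, 3 lower and 12 did not pass, with a median change of 0.41. After quantile normalization 13 were higher and 5 lower, with a median of 0.14. Ilp6, the insulin-like peptide gene of the fat body, went from 4.27, 3.83, 3.79 and 3.96 RPM in the control fed libraries to 43.3, 62.1, 66.1 and 67.7 RPM in the control fasted libraries. All 4 fasted libraries lay more than 10 times above the fed ones. Ilp5, made in the insulin-producing cells of the brain, fell from 2.66 ± 0.347 to 0.625 ± 0.363 RPM, and the fasted levels correspond to 5 to 20 reads per library. Ilp2 and Ilp3 of the same cells did not pass: Ilp2 was at 7.02 ± 0.729 RPM in fed and 6.595 ± 0.879 RPM in fasted larvae and Ilp3 at 1.26 ± 0.156 RPM in fed and 1.28 ± 0.181 RPM in fasted larvae. The adipokinetic hormone gene Akh rose from 3.77 ± 0.689 to 6.33 ± 0.964 RPM and its receptor gene AkhR, which acts in the fat body, from 4.44 ± 0.305 to 21.3 ± 3.64 RPM. Lst, which encodes the insulin-restraining peptide Limostatin, rose from 3.47 ± 1.15 to 13.5 ± 1.76 RPM. CCHa2, a nutrient-dependent peptide that stimulates the insulin-producing cells, fell from 49.5 ± 5.48 to 24.5 ± 3.72 RPM. The insulin-binding protein gene ImpL2 was at 62.6 ± 17.6 RPM in fed and 82.1 ± 13.3 RPM in fasted larvae and did not pass (adjusted p = 0.12). Nplp2, the member of the list with the most reads, fell from 3514 ± 145 to 2387 ± 99.7 RPM.

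**Figure D2:**
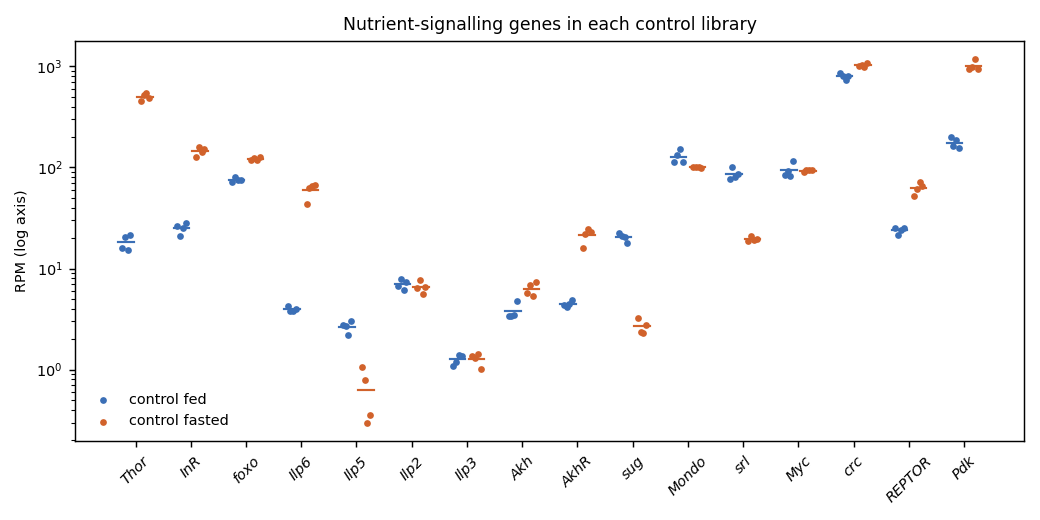
Levels of 16 genes of nutrient signalling in each control library, in RPM on a log axis, with 4 control fed (blue) and 4 control fasted (orange) libraries and a bar at each mean. Thor, InR, Ilp6, AkhR, REPTOR and Pdk separate upwards, Ilp5, sug and srl downwards, and Ilp2, Ilp3 and Myc overlap.

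Genes for making ribosomes fell as a group, while genes for the ribosomal proteins themselves did not. Of 47 ribosome biogenesis genes, 43 were lower and 2 higher, with a median change of -1.38, against 0.10 for all genes. Their summed level was 3615 to 4075 RPM in the control fed libraries and 1507 to 1602 RPM in the control fasted ones. hoip, which encodes a core protein of box C/D small nucleolar particles, fell from 129, 134, 122 and 131 RPM in the control fed libraries to 20.2, 17.03, 14.9 and 17.3 RPM in the control fasted libraries. Its partners nop5 and Nop56 fell from 299.8 ± 23.5 to 77.1 ± 5.92 RPM and from 259 ± 7.41 to 54.4 ± 2.27 RPM. The exception with the largest rise was Non1, a nucleolar GTPase gene, at 41.3, 43.7, 42.6 and 43.6 RPM in the control fed libraries and 127, 160.0, 147 and 139 RPM in the control fasted libraries. All 6 snoRNA host genes, a list added after values were seen, fell, with Uhg5 going from 55.5 ± 6.14 to 8.85 ± 2.09 RPM. For RNA polymerases I and III, which transcribe ribosomal and transfer RNA genes, 13 of 20 genes were lower and 3 higher (median -0.72). The shared subunit gene CG3756 fell from 37.1 ± 3.30 to 11.3 ± 1.62 RPM, and Tif-IA, the polymerase I initiation factor gene, from 149 ± 8.61 to 85.9 ± 8.08 RPM.

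Of 81 cytosolic ribosomal protein genes, 3 were higher and 7 lower, and 71 did not pass, with a median change of 0.01. After quantile normalization 40 were higher and 10 lower, with a median of 0.18, so the count of this list depends on the scaling. Several of these genes were listed at far lower levels than the rest of the family, so part of their reads may have been lost or split between copies before the table was made, which was not tested. Mitochondrial ribosomal protein genes fell almost without exception: 67 of 68 were lower and none was higher (median -1.19). mRpL20 had the largest fall, from 65.4, 62.4, 66.8 and 66.1 RPM in the control fed libraries to 18.3, 18.7, 16.1 and 15.8 RPM in the control fasted libraries. The member with the most reads, mRpS9, changed less, from 107 ± 4.47 to 91.3 ± 11.8 RPM, and its groups overlapped. Translation factors were divided, with 9 of 53 higher and 23 lower (median -0.13), and 5 were higher without control fed replicate 4 or control fasted replicate 1. eEF1delta, an exchange factor gene of elongation, fell from 569.8 ± 17.6 to 123 ± 20.6 RPM, while the elongation factor gene EF2 was at 3127 ± 111 RPM in fed and 3052 ± 265 RPM in fasted larvae and did not pass (it passed as higher after quantile normalization). Of 29 aminoacyl-tRNA synthetase genes 28 were lower and none higher (median -0.83), for example Aats-trp from 127 ± 4.17 to 39.3 ± 3.39 RPM and Aats-asp from 347 ± 10.2 to 194 ± 9.63 RPM. Genes for 2 translational inhibitors, chosen after their values were seen, rose beside Thor: Paip2 from 23.3 ± 2.74 to 168 ± 10.9 RPM and Pdcd4 from 28.0 ± 1.53 to 250.1 ± 10.0 RPM.

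Genes of the secretory pathway were lower. Of 35 genes for translocation into the endoplasmic reticulum (ER) and folding there, 34 were lower and none higher (median -1.38), and their summed level went from 12559 to 14285 RPM in the control fed libraries to 3472 to 4716 RPM in the control fasted ones. Hsc70-3, the BiP gene, was at 1631, 1642, 1575 and 1405 RPM in the control fed libraries and 376, 219.7, 217 and 231 RPM in the control fasted libraries. Its highest fasted value was again that of replicate 1, and 29 of the 35 genes were higher in that library than in the other 3 fasted libraries. Pdi, the protein disulphide isomerase gene, fell from 2762 ± 227 to 635 ± 78.3 RPM, Sec61alpha, the channel subunit gene, from 1477 ± 81.0 to 305 ± 63.8 RPM and Gp93, the ER Hsp90 gene, from 1115 ± 108 to 229.9 ± 84.2 RPM. All 15 genes of the COPI and COPII vesicle coats were lower (median -0.93, with replicate 1 the highest fasted library in 12), from Sec24CD (log2 change -1.32 ± 0.09) to the GTPase gene Sar1 (log2 change -0.74 ± 0.07). CrebA, a transcription factor gene for secretory capacity, fell from 93.3 ± 4.65 to 39.5 ± 3.46 RPM.

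Storage and lipid carrier proteins are the chief secretory load of the fat body. Of the 6 measured genes of this list 5 were lower and none higher (median -2.69, or -2.89 without control fasted replicate 1, where 4 passed). Together they had 29867 to 49239 RPM in the control fed libraries and 11774 to 13165 RPM in the control fasted ones. Replicate 1 was the highest fasted library in 4 of the 6. Most of what was left in fasted larvae was Rfabg, the lipophorin precursor gene, which fell only from 16834 ± 1151 to 10469 ± 266 RPM. In bulk samples such as these, fewer cells of a type and less RNA per cell cannot be told apart.

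**Figure D3:**
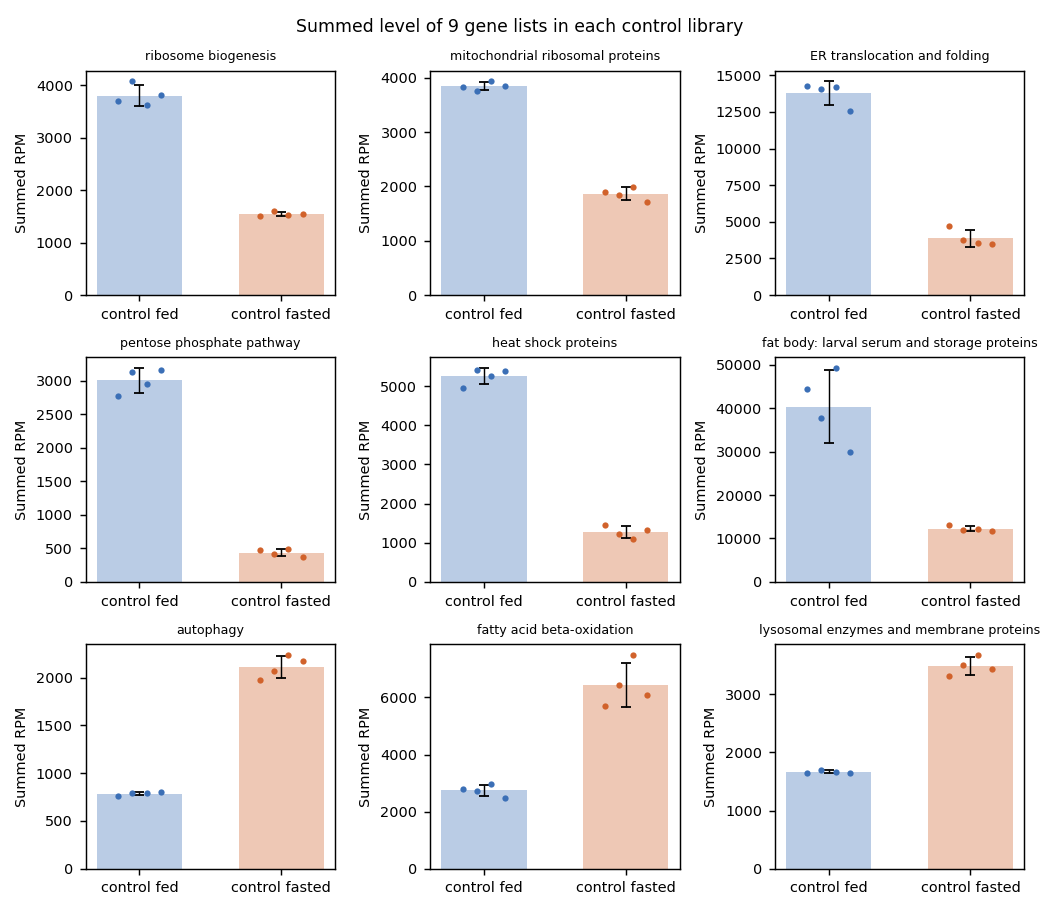
Summed RPM of 9 gene lists in each control library (points), with the mean (bar) and SD (whisker) of 4 control fed and 4 control fasted libraries. Ribosome biogenesis, mitochondrial ribosomal proteins, ER, pentose phosphate, heat shock and storage protein genes were lower and autophagy, beta-oxidation and lysosomal genes higher in all fasted libraries.

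Mitochondrial genes fell widely but by less. Of 58 genes of the respiratory chain and ATP synthase 56 were lower and none higher, yet the median change was only -0.49 and no member passed -1. ATPsynC, the ring subunit gene of ATP synthase, went from 2382 ± 113 to 1529 ± 195 RPM. In the citric acid cycle 14 of 17 genes were lower and 3 higher (median -0.46). The citrate synthase gene kdn fell from 1962 ± 146 to 1110.2 ± 98.9 RPM and l(1)G0334, the pyruvate dehydrogenase alpha subunit gene, from 271 ± 14.8 to 133 ± 19.03 RPM, whereas skap, a succinyl-CoA synthetase gene, rose from 426 ± 4.24 to 883 ± 60.9 RPM. Larger falls were seen in mitochondrial protein import and chaperones, a list added after values were seen, in which 10 of 11 genes were lower (median -1.42). Replicate 1 was the highest fasted library in 9 of them. The outer membrane channel gene Tom40 fell from 148 ± 5.50 to 38.4 ± 2.29 RPM and the chaperonin gene Hsp60 from 1364 ± 109.8 to 324 ± 22.6 RPM.

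Genes of glucose use fell, and some genes of glucose production rose. Of 13 genes listed under glycolysis 10 were lower and 1 higher (median -0.49), with Gapdh2 going from 2768 ± 65.6 to 1147 ± 169 RPM. The largest fall of this list was not in a glycolytic enzyme gene but in the glycerol-3-phosphate dehydrogenase gene Gpdh. It fell from 1262 ± 84.4 to 386 ± 51.6 RPM. The hexokinase gene Hex-A was the member that rose, from 80.6 ± 17.9 to 124 ± 4.78 RPM. In the pentose phosphate pathway, which makes NADPH for lipid synthesis and ribose for nucleotides, all 7 genes of a list added after values were seen were lower (median -2.76). Zw, the glucose-6-phosphate dehydrogenase gene at the entry of the pathway (chromosome X, 19667252 to 19672353), was at 78.5, 101, 62.5 and 93.9 RPM in the control fed libraries and 8.19, 7.54, 6.38 and 6.98 RPM in the control fasted libraries. Pgd, which encodes the next NADPH-producing enzyme, fell from 659 ± 51.6 to 68.2 ± 12.7 RPM. The transketolase gene CG8036 and the transaldolase gene Taldo fell from 1288 ± 91.6 to 185 ± 32.7 RPM and from 852 ± 38.8 to 125 ± 16.3 RPM. Among 15 genes of gluconeogenesis, trehalose and glycogen 8 were higher and 4 lower (median 0.34). CG10924, a phosphoenolpyruvate carboxykinase gene, rose from 2.27, 1.86, 3.02 and 1.90 RPM in the control fed libraries to 31.2, 48.2, 43.8 and 55.0 RPM in the control fasted libraries, and fbp, the fructose-1,6-bisphosphatase gene, from 154 ± 14.5 to 436 ± 68.0 RPM. Tps1, the trehalose synthase gene, rose from 192 ± 13.4 to 312 ± 22.4 RPM. AGBE, the glycogen branching enzyme gene, fell from 425 ± 14.5 to 217 ± 51.6 RPM, and the glycogen phosphorylase gene GlyP was at 915 ± 81.3 RPM in fed and 945 ± 162 RPM in fasted larvae and did not pass.

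Most genes of fatty acid breakdown rose. Of 19 beta-oxidation genes 14 were higher and 3 lower (median 0.78, with replicate 1 the lowest fasted library in 10), and their summed level was 2483 to 2969 RPM in the control fed libraries and 5690 to 7484 RPM in the control fasted ones. whd, the gene for the carnitine palmitoyltransferase that lets fatty acids into mitochondria (chromosome 2R, 10469473 to 10478567), was at 31.7, 31.2, 27.9 and 28.6 RPM in the control fed libraries and 504, 669.9, 718 and 652 RPM in the control fasted libraries. CG12262, a medium-chain acyl-CoA dehydrogenase gene, rose from 168 ± 32.9 to 1603 ± 256 RPM and the thiolase gene yip2 from 201 ± 27.7 to 1019 ± 116 RPM. CG4592, an enoyl-CoA isomerase gene, was among the members that fell, from 30.4 ± 0.911 to 16.6 ± 1.56 RPM.

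Amino acid enzymes moved in both directions. Of 28 catabolic genes 11 were higher and 11 lower (median 0.06). Among those that rose were genes for the breakdown of phenylalanine and tyrosine: hgo, the homogentisate dioxygenase gene, went from 20.1, 15.6, 23.8 and 18.8 RPM in the control fed libraries to 244, 237, 282 and 273 RPM in the control fasted libraries, and Hn, the phenylalanine hydroxylase gene, from 114 ± 12.4 to 473 ± 46.8 RPM. The threonine dehydrogenase gene CG5955 fell from 66.9 ± 6.81 to 24.3 ± 2.77 RPM. In serine, glycine and one-carbon metabolism 5 of 18 genes were higher and 5 lower (median -0.10). Gnmt and Sardh, whose enzymes make and oxidize sarcosine in the disposal of methyl groups, rose from 57.3 ± 18.6 to 329.8 ± 168 RPM and from 70.8 ± 11.5 to 266 ± 25.7 RPM, and the folate enzyme gene pug rose from 441 ± 18.9 to 1118 ± 139 RPM. CG6415, a glycine cleavage gene, fell from 200.1 ± 20.01 to 87.8 ± 8.88 RPM. Purine synthesis was also split, with 4 of 8 genes higher and 4 lower in a list added after values were seen. Prat2, the gene for the first enzyme of the pathway, rose from 14.9 ± 4.25 to 137 ± 14.1 RPM and ade5 from 7.19 ± 0.95 to 55.0 ± 11.9 RPM. Of 26 amino acid and peptide transporter genes 11 were higher and 8 lower. The oligopeptide transporter gene yin rose from 4.29 ± 0.953 to 20.1 ± 5.69 RPM and path, a lysosomal amino acid transporter gene, from 142 ± 4.16 to 417 ± 39.0 RPM, while mnd, a leucine transporter gene, fell from 49.0 ± 7.34 to 13.5 ± 0.645 RPM.

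Autophagy and lysosomal genes rose, and proteasome genes fell. Of 21 autophagy genes 18 were higher and 1 lower (median 1.04, the largest of the 56 list medians), with a summed level of 763.7 to 803.6 RPM in the control fed libraries and 1974 to 2236 RPM in the control fasted ones. Atg8a, whose product coats the autophagosome (chromosome X, 10764878 to 10768338), was at 160.2, 171, 175 and 198 RPM in the control fed libraries and 773, 791, 907 and 925 RPM in the control fasted libraries. Atg18b rose from 10.5 ± 0.81 to 46.5 ± 6.62 RPM. Among 18 genes of lysosomal enzymes and membrane proteins, a list added after values were seen, 12 were higher and 4 lower (median 1.01), for example the cathepsin F gene CG12163 from 122 ± 4.93 to 518 ± 42.9 RPM. DOR, an autophagy regulator gene, and CG5059, the fly BNIP3 gene of mitophagy, were chosen after their values were seen. DOR rose from 39.7 ± 2.58 to 189.9 ± 26.9 RPM and CG5059 from 11.8 ± 0.7 to 149.7 ± 9.12 RPM. Of 26 genes of the vacuolar proton pump, which acidifies the lysosome, 6 were higher and 15 lower (median -0.23). After quantile normalization 3 were higher and 6 lower (median -0.09), and only 2 were higher without control fed replicate 2, 3 or 4 or control fasted replicate 1 or 4. Proteasome subunits fell together by a small step: 29 of 31 were lower and none higher (median -0.54, with replicate 1 the highest fasted library in 18), with Rpn1 going from 217 ± 15.1 to 138 ± 5.88 RPM and Prosbeta4 from 79.1 ± 0.769 to 43.9 ± 3.56 RPM.

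DNA replication and cell cycle genes fell. Of 59 measured genes 46 were lower and 2 higher (median -0.65). RnrL, which encodes the large subunit of ribonucleotide reductase, was at 85.1, 75.7, 81.5 and 73.0 RPM in the control fed libraries and 17.4, 14.4, 13.4 and 14.1 RPM in the control fasted libraries. PCNA, the sliding clamp gene, fell from 71.8 ± 3.00 to 15.5 ± 2.36 RPM and the topoisomerase gene Top2 from 147 ± 12.0 to 100.1 ± 17.7 RPM. dap, the gene for a cyclin-dependent kinase inhibitor of the p21 family, was a member that rose, from 18.0 ± 0.676 to 26.5 ± 2.59 RPM. In 35 of the 59 genes control fasted replicate 1 was the highest of the fasted libraries. Without it 48 were lower and 1 higher.

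**Figure D4:**
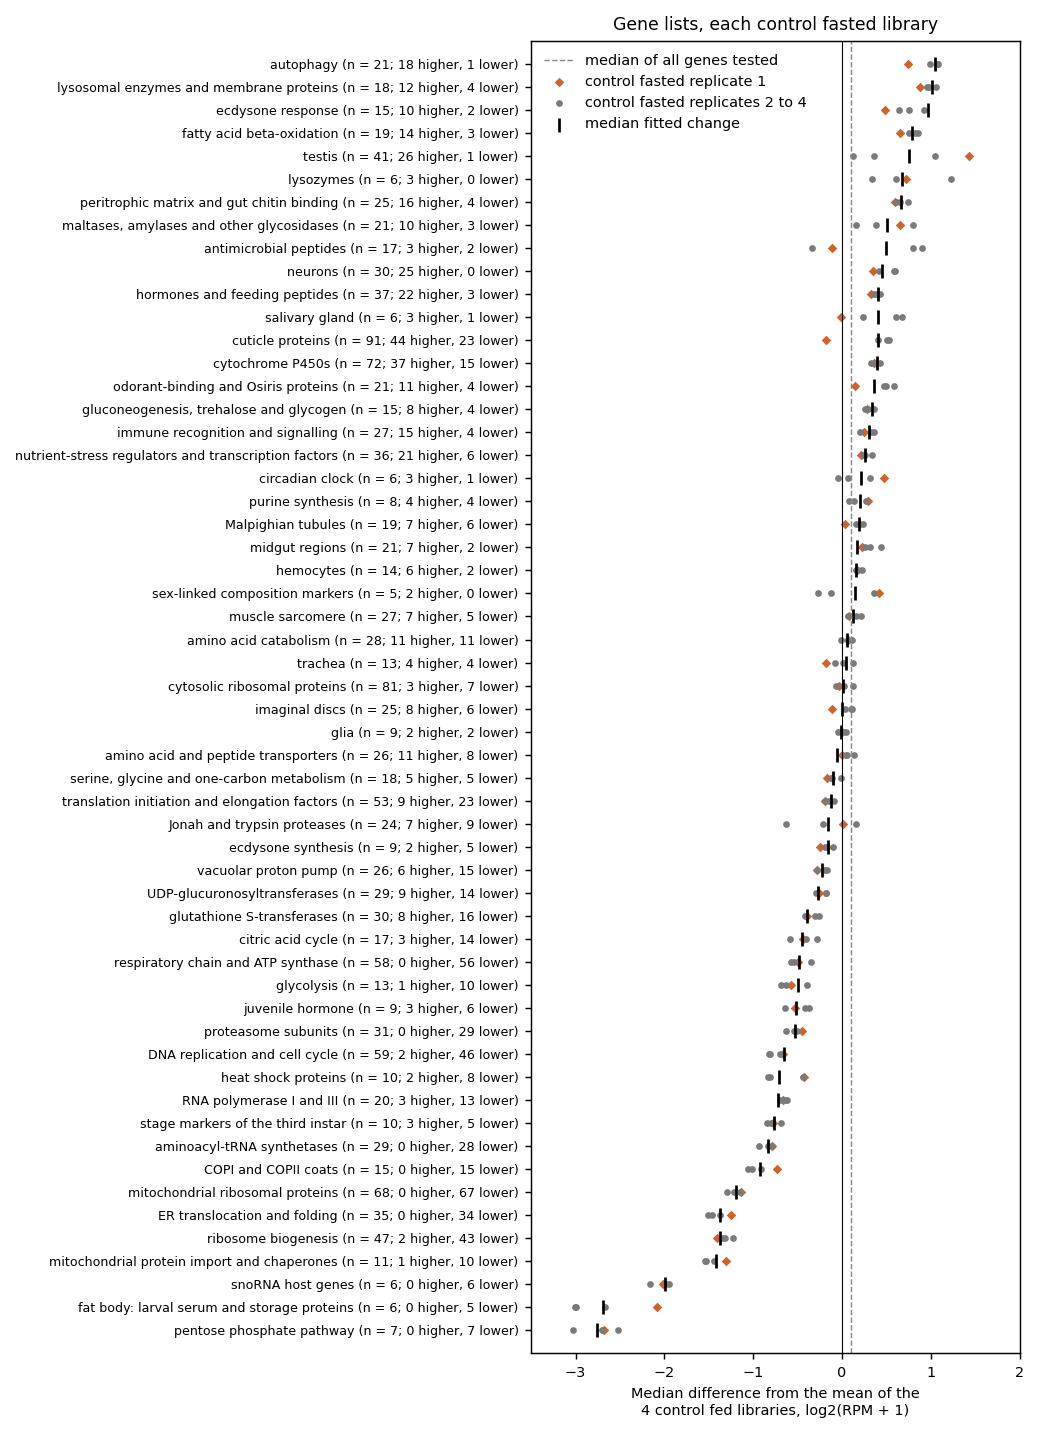
Median difference from the mean of the 4 control fed libraries, on the log2(RPM + 1) scale, for 56 gene lists (rows, with the number of members and of those called higher and lower). Points are the 4 control fasted libraries, with replicate 1 as an orange diamond, the black tick is the median fitted change and the dashed line the median of all genes (0.10). The lists run from the pentose phosphate pathway (-2.76) to autophagy (1.04).

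Among gut genes, those for sugar digestion were more often higher than lower. Of 21 genes for maltases, amylases and other glycosidases 10 were higher and 3 lower (median 0.50). Their summed level overlapped between the groups, at 4944 to 8583 RPM in the control fed libraries and 4877 to 9262 RPM in the control fasted ones. LManVI, the member with the most reads, was at 2930 ± 818 RPM in fed and 2806 ± 1049 RPM in fasted larvae and did not pass. Amyrel, an amylase-related gene, was at 51.5, 51.5, 52.3 and 21.7 RPM in the control fed libraries and 626, 695, 817 and 573 RPM in the control fasted libraries. Amy-d, an amylase gene with a near-identical copy that may share its reads, rose from 54.3 ± 20.5 to 376 ± 53.9 RPM, and tobi, a glucosidase gene under insulin and glucagon-like control, from 53.9 ± 9.25 to 361 ± 24.4 RPM. Mal-A8 fell from 56.1 ± 8.11 to 13.8 ± 5.20 RPM. Trypsin and Jonah protease genes did not move as a list, with 7 of 24 higher and 9 lower and a median of -0.16 that turned to 0.02 after quantile normalization. alphaTry rose from 152 ± 24.3 to 463 ± 8.53 RPM and Jon99Ciii fell from 8.77 ± 2.27 to 1.99 ± 0.365 RPM. Jon65Aiv, the protease gene with the most reads, was at 6836 ± 660.0 RPM in fed and 7532 ± 1052 RPM in fasted larvae and did not pass. Of 25 genes of the peritrophic matrix, the chitin lining that shields the gut wall, and related chitin-binding proteins 16 were higher and 4 lower (median 0.66). The mucin genes Muc68E and Muc96D rose from 6.40 ± 1.54 to 24.1 ± 2.67 RPM and from 1331 ± 45.6 to 2158 ± 106 RPM, and obst-A, which also serves cuticle and trachea, fell from 309 ± 23.0 to 58.5 ± 11.5 RPM. Of 6 lysozyme genes 3 were higher and none lower, among them LysS, from 617 ± 73.4 to 957 ± 210.4 RPM. The count of higher genes was 1 with edgeR, 1 with DESeq2 and 1 when control fed replicate 1, 3 or 4 or control fasted replicate 1, 2 or 4 was left out. Lysozyme genes are close copies, so their reads may be shared.

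Detoxification families held large changes in both directions. Among 72 cytochrome P450 genes 37 were higher and 15 lower (median 0.40). Cyp4e3 was close to absent from fed larvae and was at 0.865, 0.672, 0.385 and 0.634 RPM in the control fed libraries and 111, 144, 197 and 113 RPM in the control fasted libraries. Cyp12a4, the member with the most reads, rose from 253 ± 26.2 to 1383 ± 312 RPM, and Cyp310a1 fell from 46.0 ± 3.36 to 2.81 ± 0.981 RPM. Of 30 glutathione S-transferase genes 8 were higher (5 after quantile normalization) and 16 lower (median -0.40): GstT4 rose from 67.9 ± 8.43 to 978 ± 261 RPM and GstE3 fell from 347 ± 50.9 to 48.8 ± 27.0 RPM. Among 29 UDP-glucuronosyltransferase genes 9 were higher and 14 lower (median -0.27), with Ugt37b1 falling from 58.7 ± 7.12 to 11.2 ± 3.63 RPM. Of 10 heat shock genes 8 were lower and 2 higher (median -0.72), and their summed level fell from 4955 to 5402 RPM in the control fed libraries to 1102 to 1456 RPM in the control fasted ones. Hsp83, the Hsp90 gene, accounted for much of this, at 2556, 2899, 2472 and 2924 RPM in the control fed libraries and 531, 276, 289 and 438 RPM in the control fasted libraries. The small heat shock gene l(2)efl rose from 105 ± 17.7 to 202 ± 62.6 RPM.

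Of the immune genes, Drs, which encodes the antifungal peptide Drosomycin, had the widest gap. It was at 0.162, 0.517, 0.193 and 0.0528 RPM in the control fed libraries and 179.9, 229, 40.5 and 155 RPM in the control fasted libraries, where the fed values are 1 to 10 reads per library. Among 17 antimicrobial peptide genes 3 were higher, 2 lower and 12 did not pass, so that Drs did not stand for the list. Replicate 1 was the lowest fasted library in 9 of them. AttD fell from 5.49 ± 1.70 to 0.442 ± 0.0621 RPM. In immune recognition and signalling 15 of 27 genes were higher and 4 lower (median 0.30). PGRP-LF, a negative regulator gene of the Imd pathway, rose from 5.97 ± 1.17 to 27.6 ± 7.17 RPM and Rel, the NF-kappaB gene of that pathway, from 58.8 ± 0.661 to 120.2 ± 4.36 RPM, while PGRP-SD fell from 9.08 ± 1.503 to 3.67 ± 0.674 RPM.

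Many cuticle genes were high in only 3 of the 4 fasted libraries. Of 91 cuticle protein genes 44 were higher and 23 lower (median 0.40, or 0.52 without control fasted replicate 1, where 48 were higher and 22 lower). In 59 of the 91 genes control fasted replicate 1 lay below the other 3 fasted libraries, by more than 1 on the log2 scale in 32 of them. The same position was taken by 2785 of all 10459 genes, and by more than 1 in 204. Ccp84Ae was at 0.324, 0.103, 0.257 and 0.264 RPM in the control fed libraries and 0.476, 349, 214 and 212 RPM in the control fasted libraries. Control fasted replicate 1 thus stayed at the fed level, at 9 reads, while the other fasted libraries were above 200 RPM. What sets this library apart was not tested. TwdlC, a Tweedle cuticle gene, had the same shape (0.27, 0.362, 0.128 and 0.37 RPM in the control fed libraries and 0.159, 122, 71.1 and 94.3 RPM in the control fasted libraries), and its groups overlapped. Cpr64Ad, chosen after its values were seen, rose from 70.9 ± 34.3 to 320.3 ± 173 RPM. Lcp4, a larval cuticle gene, fell in all 4 fasted libraries (24.8, 25.4, 23.6 and 30.3 RPM in the control fed libraries and 4.65, 4.16, 5.44 and 5.30 RPM in the control fasted libraries). Cpr47Eg, the cuticle gene with the most reads, went from 5459 ± 462 to 4136 ± 428 RPM and no longer passed after quantile normalization.

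Ecdysone, the moulting steroid, acts through a cascade of early and late nuclear receptor genes. Of 15 response genes 10 were higher and 2 lower (median 0.97, 0.57 after quantile normalization), and the same numbers passed without control fasted replicate 1, which was the lowest fasted library in 10 of the 15. Eip74EF, an early ETS factor gene, was at 1.95, 1.71, 1.48 and 2.38 RPM in the control fed libraries and 5.13, 20.03, 29.5 and 19 RPM in the control fasted libraries. Replicate 1 lay between the fed and the other fasted libraries. Hr4, which was also among 9 ecdysone synthesis genes, followed the same order at 0.487, 0.517, 0.321 and 0.422 RPM in the control fed libraries and 2.06, 11.0, 6.38 and 7.44 RPM in the control fasted libraries. Eip75B rose from 23.8 ± 1.70 to 59.1 ± 28.7 RPM, with replicate 3 highest, and the receptor gene EcR went from 13.5 ± 0.679 to 17.9 ± 3.98 RPM, with overlapping groups. EcR passed only narrowly in the limma fit (adjusted p = 0.042). It no longer passed after quantile normalization (0.052) or with only the 8 control libraries (0.057). The call was also lost when any control library other than fasted replicate 1 was left out. br, the gene of the pupal determinant Broad, fell from 59.0 ± 7.53 to 21.4 ± 1.90 RPM. In ecdysone synthesis 5 of 9 genes were lower and 2 higher, and sad, one of the terminal hydroxylase genes, fell from 4.17 ± 0.816 to 1.55 ± 0.418 RPM. All 9 juvenile hormone genes passed, 3 as higher and 6 as lower (median -0.52). Jheh3, an epoxide hydrolase gene that degrades the hormone, fell from 618 ± 34.0 to 197 ± 39.4 RPM, and Kr-h1, its target transcription factor gene, rose from 6.14 ± 0.873 to 11.0 ± 2.21 RPM. Of 10 stage markers of the third instar 3 were higher and 5 lower, the lower ones being Lsp1 and larval cuticle genes. Developmental progress may differ between fed and fasted larvae, and its part in these values was not tested.

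**Figure D5:**
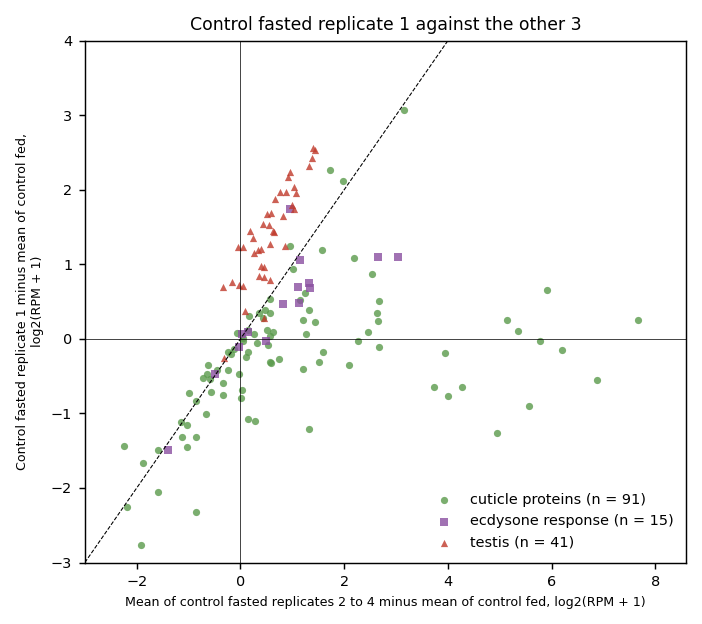
Difference from the mean of the control fed libraries, on the log2(RPM + 1) scale, in control fasted replicate 1 (y axis) and in the mean of control fasted replicates 2 to 4 (x axis), for cuticle (91), ecdysone response (15) and testis (41) genes. Below the dashed line of equal change lie many cuticle genes that rose in the other 3 libraries but not in replicate 1, and above it lie the testis genes apart from gdl.

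Apart from the fat body list, the marker lists of single tissues had medians between -0.01 (glia) and 0.75 (testis). Of the 30 neuronal genes 25 were higher and none lower, at a median of 0.45 and with only 2 members above 1. The 2 members above 1 were Ddc and ple, genes of dopamine synthesis that the epidermis also uses for hardening cuticle. Replicate 1 was the lowest fasted library in 20 of the 30 genes. Ddc rose from 10.5 ± 2.31 to 43.5 ± 15.9 RPM, and ple was at 22.1, 21.3, 20.5 and 22.8 RPM in the control fed libraries and 15.7, 68.6, 114.6 and 85.1 RPM in the control fasted libraries, with control fasted replicate 1 below every fed library. nrv3, a neuronal sodium pump gene and the list's member with the most reads, rose from 68.6 ± 5.67 to 93.8 ± 8.38 RPM. Glial markers had 2 of 9 genes higher and 2 lower: loco rose from 28.0 ± 1.25 to 56.3 ± 5.82 RPM, while the glutamate-handling genes Eaat1 and Gs2 fell from 52.6 ± 5.50 to 21.4 ± 0.374 RPM and from 185 ± 12.2 to 101 ± 22.7 RPM.

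Of 27 muscle genes 7 were higher and 5 lower (median 0.13). After quantile normalization 16 were higher and 2 lower (median 0.27). The number higher was 11 with only the 8 control libraries, 4 without control fed replicate 3 and 3 without control fed replicate 4 or control fasted replicate 3. The actin gene Act57B was at 18910.3 ± 1535 RPM in fed and 20756 ± 3104 RPM in fasted larvae and did not pass, Mlp60A fell from 35.8 ± 3.27 to 16.8 ± 1.86 RPM and Strn-Mlck rose from 214 ± 24.8 to 309 ± 43.0 RPM. Midgut region markers had 7 of 21 higher and 2 lower (median 0.17), with Jon25Bi rising from 1743 ± 99.4 to 2697 ± 224 RPM. In the salivary gland list 3 of 6 genes were higher and 1 lower, and ng3, a new glue gene, rose from 298 ± 126 to 582 ± 124 RPM. Of 14 hemocyte markers 6 were higher and 2 lower. Those that fell were vkg and Cg25C, the collagen IV genes that the fat body also expresses, from 2649 ± 17.2 to 1828 ± 143 RPM and from 3783 ± 58.7 to 2744 ± 234 RPM (Cg25C did not pass after quantile normalization, adjusted p = 0.051), and the scavenger receptor gene Sr-CI rose from 15.3 ± 0.338 to 35.5 ± 7.28 RPM. Malpighian tubule markers (7 of 19 higher, 6 lower) held the phosphate transporter gene Picot, which fell from 287 ± 46.9 to 80.3 ± 14.1 RPM, CG7442, which rose from 16.6 ± 3.05 to 52.3 ± 4.89 RPM, and the urate oxidase gene Uro, at 168 ± 83.0 RPM in fed and 249 ± 65.8 RPM in fasted larvae, which did not pass. In trachea 4 of 13 genes were higher and 4 lower, with replicate 1 the lowest fasted library in 11: verm, a chitin deacetylase gene, fell from 1306 ± 89.3 to 788 ± 66.8 RPM and kkv, the chitin synthase gene, rose from 222 ± 3.88 to 374 ± 43.5 RPM. Imaginal disc genes had 8 of 25 higher (5 after quantile normalization), 6 lower and none beyond 1, with replicate 1 the lowest fasted library in 13. Examples are ap, which fell from 15.2 ± 0.472 to 8.21 ± 0.391 RPM, nub, which rose from 15.0 ± 1.88 to 21.3 ± 1.34 RPM, and ci, which rose from 77.0 ± 7.73 to 95.2 ± 4.38 RPM.

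Testis genes were higher in 26 of 41 cases and lower in 1 (median 0.75), but the libraries did not separate. Their summed level was 82.1 to 180.3 RPM in the control fed libraries and 133.1 to 414.0 RPM in the control fasted ones, so the groups overlapped. For control fasted replicates 1 to 4 it was 414.0, 174.3, 133.1 and 369.9 RPM, with replicates 2 and 3 inside the fed range. Control fasted replicate 1 was above the other fasted libraries in 34 of the 41 genes, and without it 13 were higher. The count fell as far in other settings, to 13 without control fed replicate 4, 14 without control fasted replicate 4, 14 with only the 8 control libraries and 14 after quantile normalization. betaTub85D, the testis tubulin gene, was at 6.543, 6.52, 4.05 and 0.845 RPM in the control fed libraries and 26.9, 9.75, 6.68 and 25.1 RPM in the control fasted libraries. bol, a meiotic gene, fell from 46.8 ± 3.31 to 38.0 ± 3.91 RPM. Of 5 sex-linked composition markers 2 were higher and none lower, and roX1, a male-specific non-coding gene, rose from 1.48 ± 0.262 to 3.20 ± 0.996 RPM. The part that the share of testis tissue has in other results was not tested. Erk7, the gene mutated in the other line, went from 2.76, 3.05, 2.31 and 0.634 RPM in the control fed libraries to 7.67, 3.53, 1.83 and 9.73 RPM in the control fasted libraries in the control libraries. Its log2 change was 0.96 ± 0.37 (SE), with an adjusted p of 0.031, the groups overlapped, and it no longer passed when only the 8 control libraries were fitted (adjusted p = 0.096) or when control fasted replicate 1 (0.092) or 4 (0.11) or control fed replicate 4 (0.11) was left out.

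The remaining lists were small or mixed. Of 6 circadian clock genes 3 were higher and 1 lower, and the median of 0.21 turned to -0.07 after quantile normalization. vri, a bZIP factor gene of the clock, rose from 0.553 ± 0.164 to 6.69 ± 0.403 RPM and Pdp1 fell from 42.1 ± 3.69 to 28.0 ± 1.96 RPM. Odorant-binding and Osiris protein genes had 11 of 21 higher and 4 lower (median 0.36).

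The same contrast in ERK7 mutant larvae was used to see how the control response compared. The mutant response differed from the control response in 3338 genes (31.9%), being higher in 1903 (18.2%) and lower in 1435 (13.7%). Among the 47 ribosome biogenesis genes, 45 had a higher (less negative) response in the mutants and none a lower one, with a median change of -0.22 in mutants against -1.38 in controls. A response depends on the fed level as well as on the fasted one. In mutants nop5 was at 89.4 RPM fed and 71.6 RPM fasted, against 299.8 and 77.1 RPM in controls. hoip was at 39.1 and 18.9 RPM, against 129 and 17.3 RPM, and Non1, which rose, at 26.2 and 83.4 RPM, against 42.8 and 143 RPM. Mean fed levels of nop5, hoip and Non1 were thus lower in mutants, but fed levels were not tested between genotypes. Those of the other genes of this list are not given here. The difference in response was above 0 in 61 of 68 mitochondrial ribosomal protein genes, 24 of 29 aminoacyl-tRNA synthetase genes and 23 of 35 ER genes. It was also above 0 in 30 of 59 cell cycle genes. Respiratory chain genes differed in 5 of 58 cases, and beta-oxidation genes in 3 of 19. The difference was below 0 in 9 of 21 autophagy genes, with a median change of 0.45 in mutants against 1.04 in controls. It was also below 0 in 10 of 15 ecdysone response genes (median 0.04 against 0.97). Among them were br and ImpE1, which fell in both genotypes, and EcR and Eip74EF, which passed as higher in controls only (EcR narrowly). For cuticle genes 29 of 91 had a lower and 10 a higher response. Control fasted replicate 1 enters each of these differences. Without it 3447 genes differed in all.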

How the data were processed

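Poly(A) libraries of whole larvae were sequenced on an Illumina NextSeq500. The authors trimmed reads with Trimmomatic, aligned them with TopHat 2.1.0 to FlyBase release 6, counted reads on exons by strand with HTSeq and filtered out genes with very low counts. The deposited values are a signal that the authors scaled to RPM (reads per 1000000) with TMM factors. Every value divided by the smallest step of its library gave a whole number of reads (100% within a tolerance of 0.01), so the reads behind each value were recovered. The columns of the authors' own comparisons (coefficients, t and p) were not used. Genes not in the table were not analysed here.

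Values were analysed as log2(RPM + 1) with limma 3.58.1 in R 4.3.3, fitting 1 mean for each of the 4 groups to the 16 libraries, and p-values were adjusted by Benjamini-Hochberg across the 10459 genes. Calls needed an adjusted p below 0.05. The difference of the mutant and control responses came from the same fit. The scripts were tested on simulated data. edgeR 4.0.16 and DESeq2 1.42.0 on the recovered reads served as alternatives, beside a pseudocount of 0.1, quantile normalization, centring on the median, removal of genes under the 25th percentile, a fit of the 8 control libraries, a replicate block, each control library left out and a minimum log2 change of 1.

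Gene lists (51, and 5 more added after values were seen) and the members were chosen with earlier results of these data known, and lists are described by counts and medians with no test. A first set of named genes held the 12 largest rises and 12 largest falls among called genes. It took only genes whose groups did not overlap and whose mean level was above the median of all genes (4.21 on the log2 scale). From each of the 51 lists came the called members with the largest rise and the largest fall, where the groups did not overlap. The member of each list with the highest mean, called or not, and a set of known regulators were added. Together these rules give 162 genes, and not all of them are named in the text. Of 178 named genes 37 fall outside the rules and were chosen after their values were seen, mostly as examples from a list whose counts are given. Symbols follow the deposited table, 10305 of the 10459 identifiers have a current symbol, and positions are from Ensembl annotation of release 6. Of the named genes 14 overlap another gene on the same strand (among them sug, Myc, crc, ImpL2, pug, pdgy, Cyp12a4 and Act57B), so reads between them are uncertain. Counting error is small beside the spread between libraries except for genes with few reads.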

Additional observations from a re-analysis of the deposited data

Results flagged for a closer look

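Of the 12 largest rises and 12 largest falls in control larvae, among genes above the median level whose groups did not overlap, 20 had a different response in ERK7 mutant larvae by the interaction term of the limma fit, against 31.9% of all genes. These genes were chosen for large changes in the control libraries, which also enter the difference, so a smaller mutant response follows in part from the choice and the values are a description. The mutant minus control difference, on the log2 scale, among genes that rose in controls was -2.47 for CG6271, -3.46 for CG6277, -1.85 for Sirup, -1.63 for CG6770, -1.92 for Thor, -1.67 for CG34136, -0.61 for whd and -0.76 for pdgy. It was -3.36 for CG14564, -3.40 for CG8541 and -3.58 for CG30458, the 3 genes in which control fasted replicate 1 stayed near the fed level. In mutants these 3 genes were near 0 on both diets, where the log2(RPM + 1) scale understates a change. Their mutant fed and fasted means were 0.204 and 1.99 RPM for CG14564, 0.399 and 2.20 RPM for CG8541 and 0.765 and 1.55 RPM for CG30458. Among genes that fell in controls the difference was 5.72 for Lsp1beta, 2.57 for Lsp1gamma, 3.41 for CG13360, 3.45 for CG14205, 2.32 for CG4830, 1.51 for CR42491, 0.64 for Zw, 1.50 for Pgd and 0.82 for ATPCL. Lip3, FASN1, ninaD and ACC did not pass this test.

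In 28 of 356 groups of 4 libraries 1 library lay far from the others, as measured by its gap to the nearest divided by the range of the group (compared with Dixon's critical value). For independent groups with normally distributed values, chance gives about 1 in 20. The ratio was taken on RPM values of genes that share the same libraries, so this rate is not a strict baseline here. In the control fasted group, replicate 1 was the lowest for CG8541 (0.919) and Myc (0.851). It was the highest for Lsp1beta (0.966), Lsp1alpha (0.922), CG4830 (0.844), Hsc70-3 (0.914), Gp93 (0.846), Mal-A8 (0.893) and GstE3 (0.886). Other fasted libraries stood out for Mondo (0.861, replicate 4 low), Nplp2 (0.921, replicate 4 high), CrebA (0.960) and Mlp60A (0.830), where replicate 3 was low, and Eip75B (0.847), vkg (0.880) and ng3 (0.915), where replicate 3 was high.

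In the control fed group, replicate 4 was the highest for ImpL2 (0.830), Akh (0.957) and Hex-A (0.936) and the lowest for yip2 (0.903), Rpn1 (0.855) and Amyrel (0.972). Replicate 2 was the highest for REPTOR-BP (0.926, from 4 reads) and Jheh3 (0.926) and the lowest for CG4830 (0.915) and Strn-Mlck (0.832). Replicate 3 was the lowest for Pdcd4 (0.864) and the highest for Act57B (0.838).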

How the results depend on the processing

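The number of changed genes stayed within 1.5 times of 7292 under all alternatives but 1: with a minimum log2 change of 1, it was 1868 (922 higher and 946 lower). Leaving out 1 control library gave 6606 to 7370 changed genes, with 3365 to 4074 higher and 3233 to 3307 lower, and 2855 to 3612 genes whose response differed between genotypes (1685 to 1924 above 0 and 1134 to 1724 below). Of 169 named genes that passed, 163 kept direction and call under each of the alternatives run for them. The exceptions, in calls only, were Erk7, EcR, mRpS9, Cpr47Eg, Cg25C and ple, and the cause was not tested. Genes that did not pass and changed sign were Myc (-0.0074 with edgeR, -0.0255 with DESeq2, -0.0522 to 0.116 with 1 library left out), Ilp3 (-0.353 after quantile normalization, -0.0291 to 0.0684 with 1 library left out), EF2 (0.317 after quantile normalization) and GlyP (-0.0734 to 0.0988 with 1 library left out).

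List medians moved by more than the SD over the 4 fasted libraries in 101 of 896 list and alternative pairs. Of the 56 lists only 23 kept a median within this SD in every alternative. The replicate numbers did not pair the libraries: deviations of same-numbered fed and fasted libraries correlated at 0.18, -0.12, 0.16 and 0.05 for replicates 1 to 4. With the replicate block 7199 genes changed (3820 higher, 3379 lower) and 3241 responses differed (1876 above 0, 1365 below). Among named genes this block ended 1 call, EcR, which had an adjusted p of 0.058.

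Levels of 1 to 10 reads, as for Drs and REPTOR-BP in fed larvae, carry large counting error. The RPM scale gives shares of the sequenced mRNA, so a change in the total mRNA of a larva cannot be seen.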
